A study of Mus musculus with 10 samples.

Results

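The genes described here are 10 genes of the eicosanoid pathway, led by Hpgds: Hpgds, Ptgs1, Ptgs2, Ptges, Ptgds, Alox5, Alox5ap, Ltc4s, Ptgr1 and Anxa1. They were taken by symbol from a table of read counts for 19764 genes, in which all 10 were found. The set was chosen by the GRMAC against GRflox difference in these same libraries, with Hpgds at its head, so the genotype differences of the 10 genes are given as descriptions and support nothing. Whole-liver polyadenylated RNA was sequenced from 5 GRMAC libraries and 5 GRflox libraries. GRMAC mice were female GRflox; LysM-Cre+/- animals, with a floxed glucocorticoid receptor gene and a Cre driven in macrophages, neutrophils and other myeloid cells; GRflox mice were littermate controls with the floxed gene, taken here to lack Cre from the genotype label. Both genotypes were fasted for 8 h from ZT12, when the active phase starts, and neither received another treatment per the labels. Ages are not given in the sources used here, and the labels number the libraries without saying that each is a separate mouse, so p-values measure the spread between libraries. If the controls lack Cre, LysM-Cre itself and loss of the receptor cannot be told apart.

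Eicosanoids are short-lived lipid signals made from arachidonic acid after phospholipases or lipases free it from membrane lipids. Cyclooxygenases turn it into prostaglandin H2, from which separate synthases make prostaglandins D2, E2 and I2 and thromboxane, while 5-lipoxygenase with its activating protein starts the leukotriene branch. In liver these signals are made largely by Kupffer cells, the resident macrophages, and by endothelial cells, and act on hepatocytes and vessels through G protein-coupled receptors. Glucocorticoids are known to damp the pathway in immune cells, in part through annexin A1.

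Of the 10 genes, Hpgds differed most between the genotypes, and Ptgs1 was the only cyclooxygenase gene with counts above 0. The promoters of both are given here from RefSeq (GRCm38.p6, 250 bases before to 50 bases after the start). They lie at chr6:65144681-65144980 on the minus strand and chr2:36230176-36230475 on the plus strand. Capitals mark GAGGAA, the core of the site of the macrophage factor PU.1, and AGAACA, the hexamer that makes up each arm of a glucocorticoid receptor site, each on either strand.
Hpgds: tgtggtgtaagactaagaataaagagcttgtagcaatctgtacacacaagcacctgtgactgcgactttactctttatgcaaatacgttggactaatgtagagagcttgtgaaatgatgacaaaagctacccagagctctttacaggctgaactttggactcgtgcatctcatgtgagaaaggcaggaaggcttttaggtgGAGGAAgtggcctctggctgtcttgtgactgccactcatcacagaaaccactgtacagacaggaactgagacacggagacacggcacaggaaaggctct
Ptgs1: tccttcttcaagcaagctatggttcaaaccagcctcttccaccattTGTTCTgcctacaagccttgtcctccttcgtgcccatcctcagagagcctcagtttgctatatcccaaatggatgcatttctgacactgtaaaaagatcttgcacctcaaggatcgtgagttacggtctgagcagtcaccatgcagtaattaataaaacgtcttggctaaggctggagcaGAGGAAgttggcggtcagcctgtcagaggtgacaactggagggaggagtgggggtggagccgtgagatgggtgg
The Hpgds window holds GAGGAA once and no AGAACA, and the Ptgs1 window holds GAGGAA once and AGAACA once, as TGTTCT. Among the 9 members with a promoter in the RefSeq table, 7 (77.8%) held GAGGAA, against 28.3% of all 32851 promoters. AGAACA was in 2 of the 9 (22.2%), Ptgs1 and Ptges, against 19.0% of all promoters. These matches are letters in a window and say nothing of binding.

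Library totals ran from 23258884 to 26116916 counts in GRMAC and from 25697931 to 27692528 counts in GRflox, and they differed between the genotypes (two-sided exact permutation test, p = 0.0159). Levels are given as CPM, the count scaled to the library's total and its TMM factor. A count of 3 in a library, the most that a count of 0 allows, corresponds to 0.111 to 0.129 CPM, which covers counting error only. Nr3c1, the floxed receptor gene, was at 82.5 ± 7.75 CPM in GRMAC and 72.8 ± 7.14 CPM in GRflox (SD, n = 5), a gene-level count of whole liver that does not check the deletion. Hepatocyte markers, of which 7 of 8 were in the table, summed to 122867 ± 9530 CPM in GRMAC and 118311 ± 7877 CPM in GRflox. In whole liver, fewer cells of a type and less RNA per cell cannot be told apart.

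Hpgds encodes haematopoietic prostaglandin D synthase, the glutathione-dependent enzyme that makes prostaglandin D2 in macrophages, mast cells and megakaryocytes (NM_019455, mm10, chromosome 6, 65117293 to 65144730, minus strand). It was at 2.37, 2.66, 2.34, 2.65 and 1.81 CPM in GRMAC libraries 1 to 5, against 0.741, 0.903, 1.22, 1.58 and 0.775 CPM in GRflox libraries 1 to 5. The lowest GRMAC library lay above the highest GRflox library, so the groups did not overlap. These levels rest on 44 to 69 counts per GRMAC library and 19 to 42 counts per GRflox library. The means were 2.37 ± 0.345 CPM in GRMAC and 1.04 ± 0.353 CPM in GRflox (SD, n = 5), a log2 fold change of 1.18 ± 0.22 (SE, edgeR), or 2.26-fold.

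**Figure D1:**
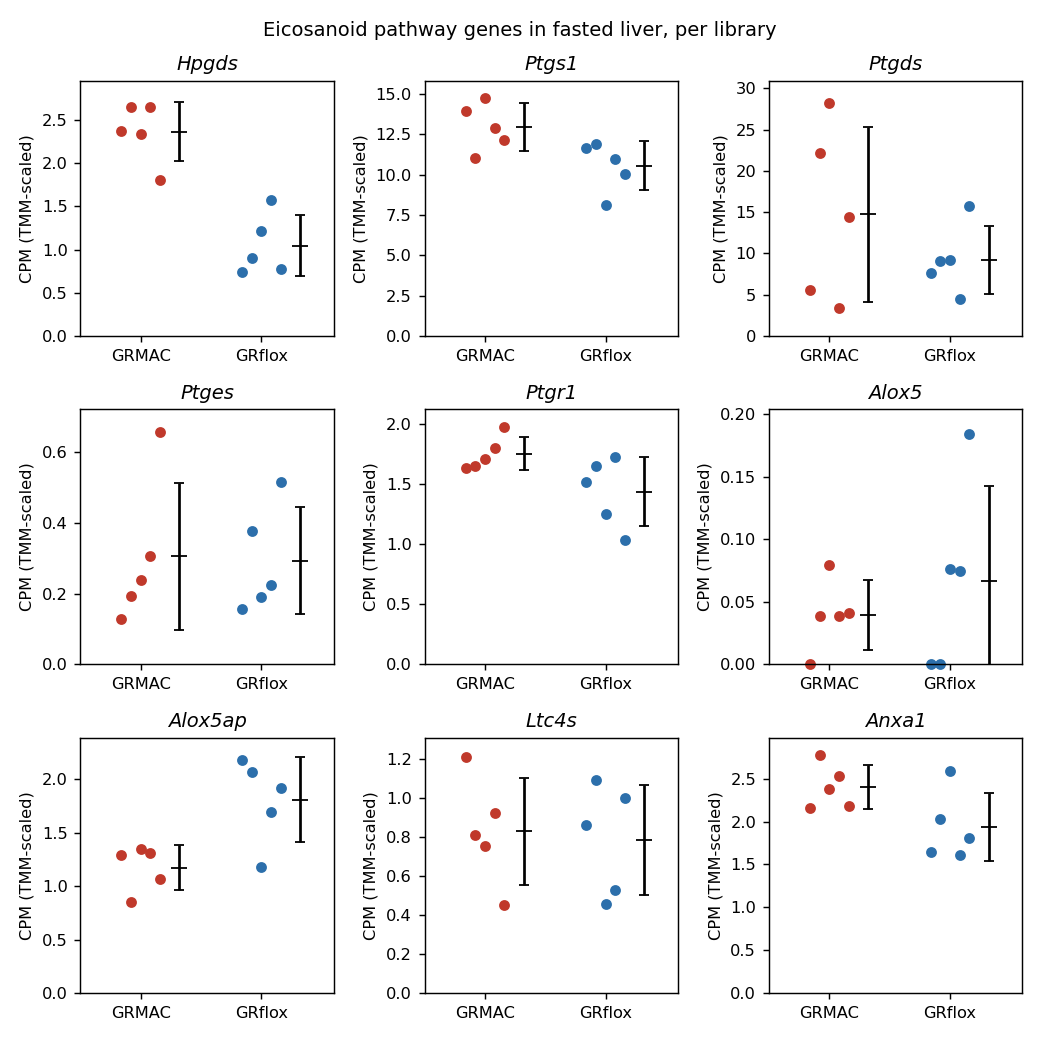
TMM-scaled CPM of 9 of the 10 genes in each library, GRMAC left (red) and GRflox right (blue); each point is 1 library and the bar is the mean ± SD (n = 5). Hpgds is the gene whose groups do not overlap, with GRMAC at 1.81 to 2.66 CPM and GRflox at 0.741 to 1.58 CPM; Ptgs2 was at 0 throughout and is left out.

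Hpgds alone of the 7 genes that passed the filter on low counts had groups that did not overlap, as did 4.05% of all 12558 tested genes. Since this contrast chose the set, nothing is read from that share. With edgeR's quasi-likelihood test adjusted over all tested genes, 0 of the 7 passed the threshold of 0.05, as 0.175% of all tested genes did. At an unadjusted p under 0.05 there were 3 (Hpgds, Ptgs1 and Alox5ap), against 16.3% of tested genes. With limma-voom 0 of the 7 passed (0.0637% of tested genes). Hpgds passed in a DESeq2 refit (3.35% of genes passed) and in the authors' deposited table (3.33%), where its log2 fold change was 1.18. It also passed with edgeR without GRMAC 5 or without GRflox 4, with log2 fold changes of 1.26 and 1.38. These are the libraries nearest to the other genotype, so leaving them out widens the difference by construction. With any other library left out Hpgds did not pass (adjusted p = 0.0802 to 0.118, edgeR).

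**Figure D2:**
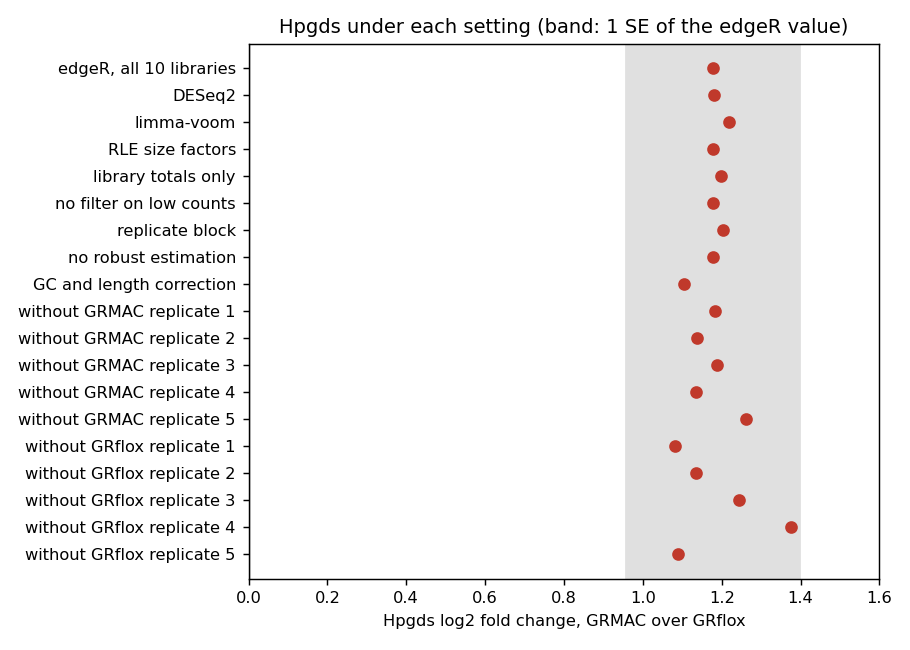
Log2 fold change of Hpgds, GRMAC over GRflox, under each processing setting and with each library left out in turn; the grey band is the edgeR value with all 10 libraries ± 1 SE. The points run from 1.08 to 1.38 and all lie inside the band.

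The markers of Kupffer cells were set beside Hpgds. The summed CPM of 14 Kupffer cell markers, without Cd163 and Cd207, was 509 to 617 in GRMAC and 424 to 560 in GRflox libraries, and the groups overlapped. Cd163 and Cd207 had the lowest log2 fold changes of the list. With both included, the sum was 512 to 621 in GRMAC and 451 to 599 in GRflox libraries, also with overlap. The difference of mean log2 sums was then 0.14, against 0.23 for the 14 markers. Of the 14, Slc40a1 was the largest part, at 229 of a mean sum of 571 CPM in GRMAC and 180 of 490 CPM in GRflox. The sum and the ratios built on it therefore lean on this gene. None of the 16 listed markers was at 0 in every library, and of the 15 tested, 10 had positive and 5 negative log2 fold changes. Clec4f, a lectin found on Kupffer cells, was at 98.0 ± 13.3 CPM in GRMAC and 93.4 ± 10.8 CPM in GRflox. Cd5l, a secreted scavenger protein of macrophages, was at 67.9 ± 12.5 CPM in GRMAC and 46.2 ± 7.27 CPM in GRflox, without overlap and in the direction of Hpgds (log2 fold change 0.55 ± 0.13, adjusted p = 0.0928 with edgeR and 0.00558 with DESeq2). Cd68 (0.42 ± 0.15), Folr2 (0.41 ± 0.14) and Slc40a1 (0.35 ± 0.13) also had positive log2 fold changes, with overlapping groups and no call by edgeR. Marco (−0.85 ± 0.40), C1qc (−0.10 ± 0.09) and C1qa (−0.04 ± 0.09) had negative ones, likewise with overlapping groups and no call. Cd163, a haemoglobin scavenger receptor, was at 3.07 ± 0.493 CPM in GRMAC and 28.8 ± 7.81 CPM in GRflox (log2 fold change −3.22 ± 0.19), opposite in direction to Hpgds. Cd207, a lectin, was also lower, at 1.18 ± 0.546 CPM in GRMAC and 4.46 ± 1.78 CPM in GRflox, without overlap (adjusted p = 0.0543, edgeR). The part of these markers in the Hpgds result was not tested. Per 1000 CPM of the 14 markers, Hpgds was at 3.99, 4.44, 4.34, 4.30 and 3.56 CPM in GRMAC libraries 1 to 5, against 1.54, 1.61, 2.87, 2.85 and 1.80 CPM in GRflox libraries 1 to 5. These ratios did not overlap between the genotypes. Hpgds was chosen by this contrast and did not overlap on its own, so nothing is read from that. The difference of mean log2 values was 1.003 for the ratio, 1.23 for Hpgds alone and 0.23 for the marker sum. By construction the first is the second less the third.

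**Figure D3:**
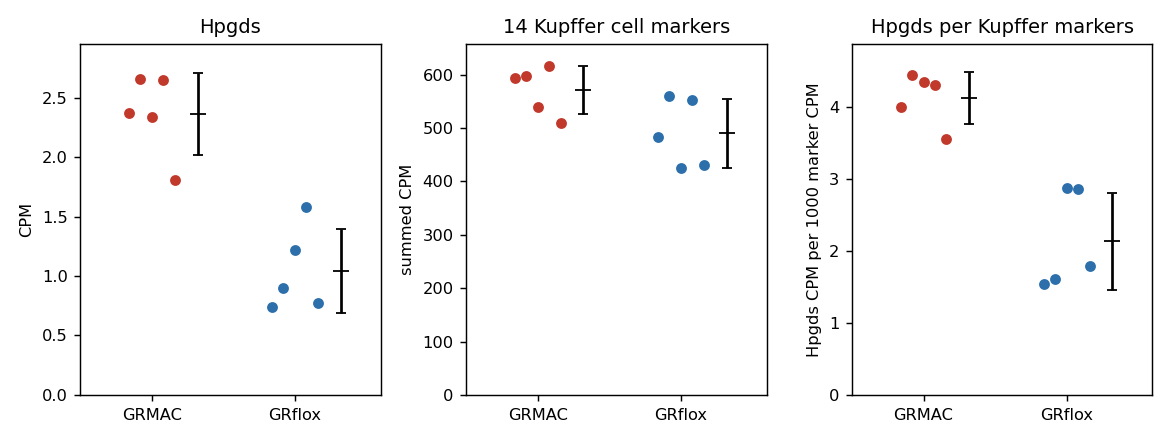
Hpgds CPM (left), summed CPM of 14 Kupffer cell markers (middle) and Hpgds CPM per 1000 CPM of these markers (right), GRMAC left and GRflox right in each panel; points are libraries and bars are means ± SD (n = 5). The marker sums overlap, at 509 to 617 CPM in GRMAC and 424 to 560 CPM in GRflox. The ratios of 3.56 to 4.44 in GRMAC lie above those of 1.54 to 2.87 in GRflox, as Hpgds CPM itself does.

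Markers of other cells known to hold Hpgds were also summed. Of 10 mast cell and basophil markers, Kit and Hdc are also made by other liver cells and the remaining 8 (Cpa3, Fcer1a, Ms4a2, Mcpt4, Cma1, Tpsb2, Tpsab1 and Mcpt8) had 11 counts over the 5 GRMAC libraries and 6 counts over the 5 GRflox libraries. Fcer1a, Tpsab1 and Mcpt8 were at 0 in all 10 libraries. The sum of all 10 markers, mostly Hdc, was 57.2 to 106.6 CPM in GRMAC and 52.4 to 86.3 CPM in GRflox. Megakaryocyte and platelet markers (7 of 7 in the table, none at 0 throughout) summed to 4.73 to 8.14 CPM in GRMAC and 5.76 to 8.31 CPM in GRflox. Monocyte markers (7 of 7) summed to 6.27 to 7.49 CPM in GRMAC and 5.63 to 7.27 CPM in GRflox. Each of these ranges overlapped, and the part these cells have in the Hpgds level was not tested.

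Upstream of Hpgds stands Ptgs1, the constitutive cyclooxygenase that makes prostaglandin H2 (NM_008969, chromosome 2, 36230426 to 36252271). It was at 13.96, 11.01, 14.7, 12.9 and 12.1 CPM in GRMAC libraries 1 to 5, against 11.7, 11.9, 8.14, 11.001 and 10.04 CPM in GRflox libraries 1 to 5. GRMAC 2 lay within the GRflox range, and the other 4 GRMAC libraries lay above it. The log2 fold change was 0.29 ± 0.11 (SE), on means of 12.9 ± 1.47 CPM in GRMAC and 10.6 ± 1.53 CPM in GRflox. Of its exon bases, 148 of 3884 are shared with Gm43621 on the opposite strand, and the strand setting of the counts is not stated. Ptgs2, the inducible cyclooxygenase, was listed at 0 in all 10 libraries, as were 3618 of the 19764 genes in the table. Whether reads of Ptgs2 were counted cannot be told from the table, so its 0 is not read as a level.

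The terminal synthases other than Hpgds differed in level and spread. Ptgds, the lipocalin-type synthase that also makes prostaglandin D2 (NM_008963, chromosome 2, 25466712 to 25469749), was at 5.56, 22.1, 28.2, 3.42 and 14.4 CPM in GRMAC libraries 1 to 5, against 7.65, 9.06, 9.20, 4.51 and 15.7 CPM in GRflox libraries 1 to 5. Both the lowest and the highest of the 10 values were GRMAC libraries, so the GRMAC range enclosed the GRflox range. The coefficient of variation was 71.8% in GRMAC and 44.2% in GRflox, against 14.6% in GRMAC and 33.8% in GRflox for Hpgds, and the log2 fold change of Ptgds was 0.68 ± 0.59. Mesothelial markers (5 of 5 in the table), of the liver's surface lining, summed to 2.69 to 8.27 CPM in GRMAC and 3.15 to 6.73 CPM in GRflox. Ptges, the microsomal prostaglandin E synthase, did not pass the filter, having 3 to 16 counts per GRMAC library and 4 to 14 counts per GRflox library, and its groups overlapped.

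Of the leukotriene branch, Alox5ap had the one negative log2 fold change among the tested members. It encodes the 5-lipoxygenase activating protein, which presents arachidonic acid to the enzyme (NM_001308462, chromosome 5, 149265004 to 149288153). It was at 1.29, 0.847, 1.35, 1.31 and 1.07 CPM in GRMAC libraries 1 to 5, against 2.19, 2.07, 1.18, 1.69 and 1.92 CPM in GRflox libraries 1 to 5. GRflox 3 lay among the GRMAC libraries and the other 4 GRflox libraries lay above all of them. Means were 1.17 ± 0.212 CPM in GRMAC and 1.81 ± 0.398 CPM in GRflox, and the log2 fold change was −0.62 ± 0.21. An antisense gene shares 189 of its 1420 exon bases.

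Alox5 itself, the 5-lipoxygenase, had 5 counts over the 5 GRMAC libraries and 9 counts over the 5 GRflox libraries, too few for the test. Ltc4s, which joins glutathione to leukotriene A4, was at 1.21, 0.808, 0.754, 0.922 and 0.452 CPM in GRMAC libraries 1 to 5, against 0.858, 1.09, 0.456, 0.526 and 0.997 CPM in GRflox libraries 1 to 5. Its range in GRMAC enclosed that in GRflox (log2 fold change 0.07 ± 0.30), and 268 of its 1014 exon bases are shared with an antisense gene.

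The last 2 members limit the pathway. Ptgr1, a reductase that inactivates leukotriene B4 and prostaglandins, was at 1.64 to 1.97 CPM (median 1.71) in GRMAC and 1.03 to 1.73 CPM (median 1.52) in GRflox, with a log2 fold change of 0.29 ± 0.18. Anxa1, the glucocorticoid-induced annexin that restrains arachidonate release, was at 2.15, 2.77, 2.38, 2.54 and 2.18 CPM in GRMAC libraries 1 to 5, against 1.64, 2.03, 2.59, 1.61 and 1.81 CPM in GRflox libraries 1 to 5. GRflox 3 lay within the GRMAC range and the other 4 GRflox libraries lay below it (log2 fold change 0.31 ± 0.16). Without GRflox 3 the log2 fold change of Anxa1 was the highest of those with 1 library left out, at 0.44.

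Levels were compared between genes as CPM per kilobase of transcript. Ptgds led at 16.4 ± 11.7 in GRMAC and 10.2 ± 4.53 in GRflox (SD, n = 5), followed by Ptgs1 at 4.52 ± 0.511 in GRMAC and 3.68 ± 0.535 in GRflox. Single GRMAC libraries of these genes overlapped (Ptgds from 3.80, Ptgs1 up to 5.14), whereas GRflox libraries did not. Anxa1, Ltc4s and Alox5ap came next, between 0.938 and 1.44 in GRMAC and between 1.16 and 1.45 in GRflox, in that order in GRMAC and in the reverse order in GRflox, with overlapping neighbours in both. Hpgds was seventh in both genotypes at 0.681 ± 0.0992 in GRMAC and 0.300 ± 0.101 in GRflox, just below Ptgr1 (0.765 ± 0.0604 in GRMAC and 0.627 ± 0.126 in GRflox) and overlapping it in both. Ptges and Alox5 closed the order below 0.1, and Ptgs2, listed at 0, was not placed in it.

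Genes with a pattern across the 10 libraries most like that of Hpgds were sought among 11566 genes with a mean of at least 1 CPM, by the mean absolute difference of centred log2 CPM. Ptar1 was nearest at 0.24, followed by Gpr137c (0.26), Dclk3 (0.26), Gbp8 (0.27) and Clec12a (0.27). Clec12a, an inhibitory lectin of myeloid cells, was at 3.97 ± 0.866 CPM in GRMAC and 2.44 ± 0.487 CPM in GRflox, and Gbp8, a guanylate-binding protein gene, at 4.55 ± 0.803 CPM in GRMAC and 2.84 ± 0.372 CPM in GRflox. For these 2 genes the genotypes did not overlap, as for 4.05% of all tested genes, and for the other 3 they did. The genes were picked for likeness to Hpgds, so nothing is read from that count. The likeness holds both the genotype difference and the variation within genotypes.

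The rest of the pathway was described with 94 further genes, listed by role, of which 88 were in the table and 67 passed the filter. With edgeR 0 of the 67 passed over all tested genes, and with limma-voom 0 passed. At an unadjusted p under 0.05 there were 13 (6 higher and 7 lower in GRMAC), against the 16.3% of all tested genes given above. Their median log2 fold change was −0.02, that of all tested genes 0.00, and their values ran from −0.48 to 0.68. A DESeq2 refit and the authors' deposited table each called Ephx2 and Mgll as lower and Cyp2c38 as higher in GRMAC. These 3 of 67 stand beside the 3.35% of all genes called by DESeq2 and the 3.33% called in the authors' deposited table, so the count is near the share of all genes. The groups did not overlap for 3 of the 67 (Ephx2 and Anxa5 lower, Anxa2 higher in GRMAC), beside 4.05% of all tested genes.

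**Figure D4:**
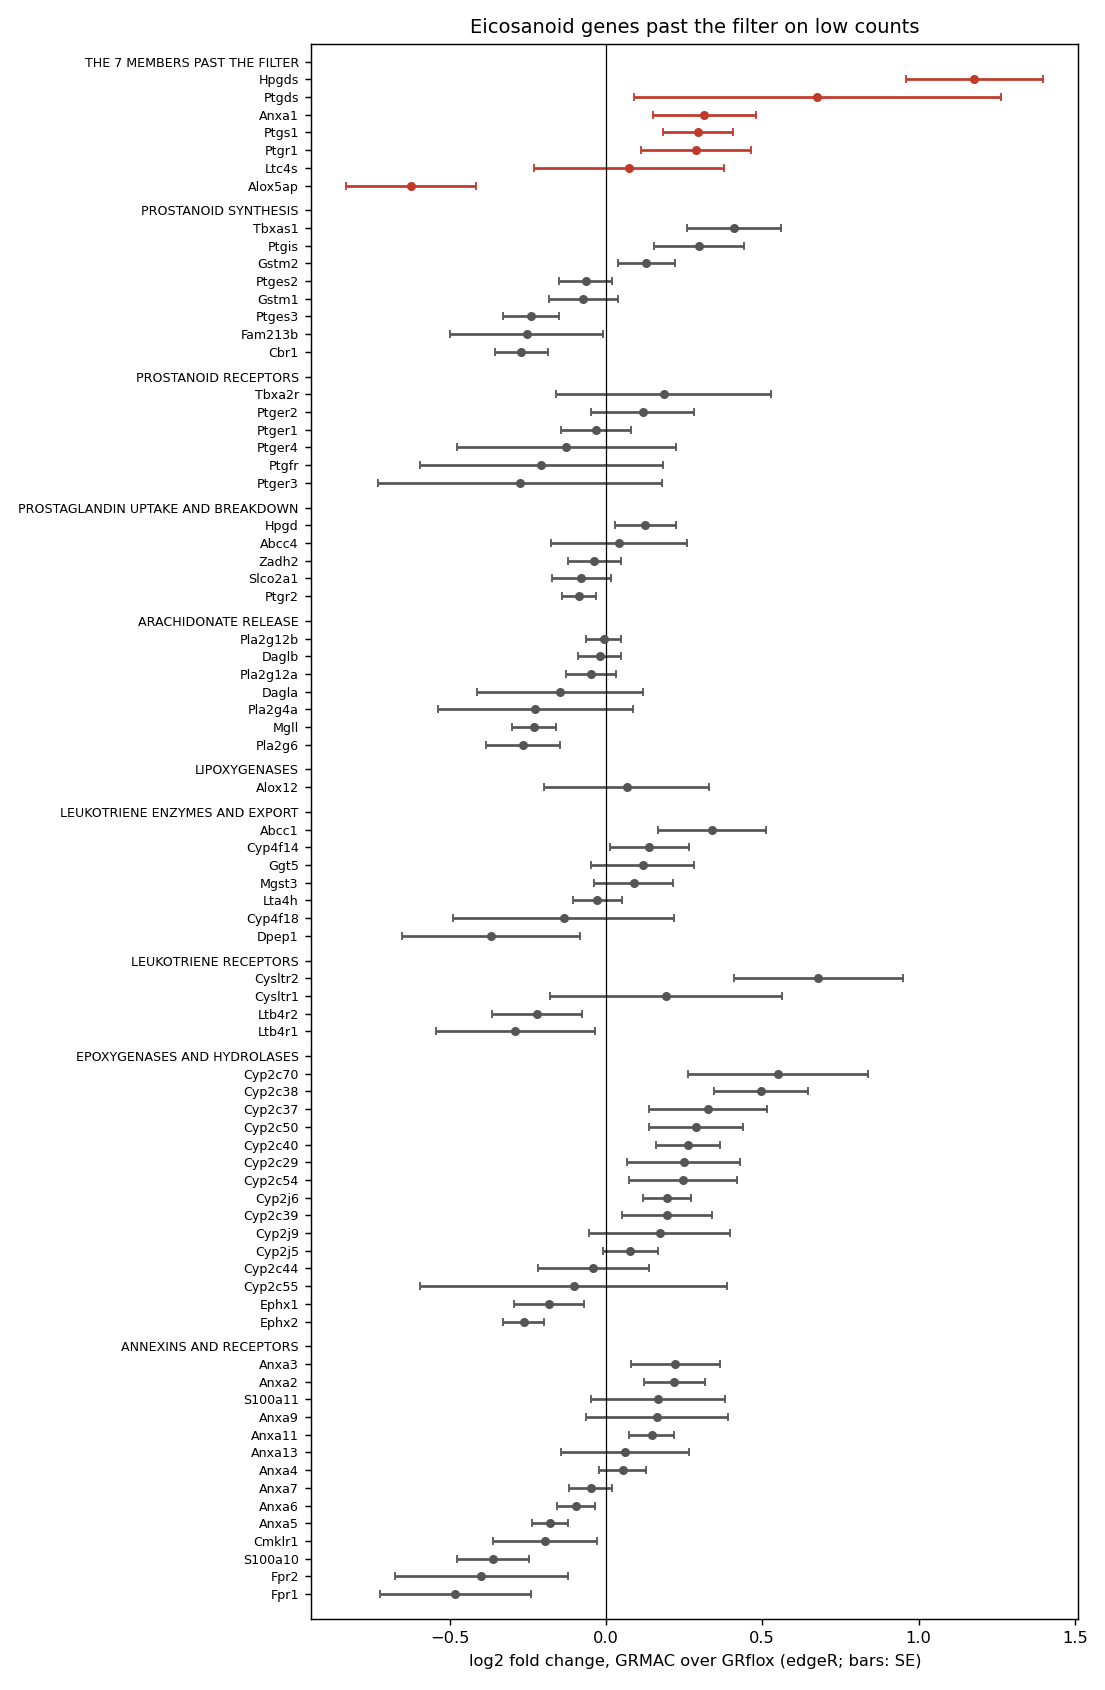
Log2 fold change, GRMAC over GRflox, with its SE for the 7 tested members (red) and the 67 tested genes of the other lists (grey), by role. Hpgds at 1.18 lies to the right of every grey point, the highest of which is Cysltr2 at 0.68. Alox5ap at −0.62 lies to the left of every grey point, the lowest of which is Fpr1 at −0.48. The bars of Alox5ap (SE 0.21) and Fpr1 (SE 0.24) overlap. The members were chosen by this contrast, so nothing is read from where they lie.

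All 7 tested genes of arachidonate release had negative log2 fold changes (median −0.15), as had 6251 of all 12558 tested genes. Pla2g12b (−0.01 ± 0.06), Daglb (−0.02 ± 0.07) and Pla2g12a (−0.05 ± 0.08) lay near 0. At an unadjusted p under 0.05 (edgeR) there were 2 of the 7, against 16.3% of tested genes, and none passed after adjustment. Mgll, the monoacylglycerol lipase that supplies much of the liver's free arachidonate, was at 490.4 ± 32.6 CPM in GRMAC and 575 ± 43.7 CPM in GRflox (−0.23 ± 0.07, adjusted p = 0.153, edgeR). Pla2g6, a calcium-independent phospholipase A2, was at 61.8 ± 9.45 CPM in GRMAC and 74.3 ± 10.9 CPM in GRflox (−0.27 ± 0.12, adjusted p = 0.291, edgeR).

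The 8 other tested genes of prostanoid synthesis had 3 positive and 5 negative values. Cbr1, a carbonyl reductase that can turn prostaglandin E2 into F2α, was at 127 ± 11.7 CPM in GRMAC and 154 ± 15.9 CPM in GRflox (−0.27 ± 0.08, adjusted p = 0.153, edgeR). Gstm1, a glutathione transferase of a family with near-identical members, was at −0.07 ± 0.11. The 6 prostanoid receptors that could be tested had 2 positive and 4 negative values; Ptger1 was at −0.03 ± 0.11 and Ptger2 at 0.12 ± 0.16. The receptors of prostaglandin D2 itself, Ptgdr and Ptgdr2, were below the filter, with 0 and 4 counts over the GRMAC libraries and 1 and 9 counts over the GRflox libraries. Of the 5 genes of uptake and breakdown, Hpgd, which inactivates prostaglandins by oxidation, was at 78.4 ± 9.55 CPM in GRMAC and 71.8 ± 9.12 CPM in GRflox, and the reductase gene Ptgr2 at 75.3 ± 4.02 CPM in GRMAC and 79.9 ± 3.94 CPM in GRflox. Neither passed (adjusted p = 0.552 and 0.461, edgeR).

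Among leukotriene enzymes and exporters (7 tested, 4 positive and 3 negative), Cyp4f14, a hydroxylase, was at 0.14 ± 0.13, Lta4h, which makes leukotriene B4, at −0.03 ± 0.08, and Abcc1, which exports leukotriene C4, at 0.34 ± 0.17 (adjusted p = 0.346, edgeR). Of the 4 leukotriene receptors, Cysltr2 was at 0.732 ± 0.169 CPM in GRMAC and 0.455 ± 0.140 CPM in GRflox (0.68 ± 0.27, adjusted p = 0.231, edgeR), and the leukotriene B4 receptors Ltb4r1 and Ltb4r2 were at −0.29 ± 0.25 and −0.22 ± 0.14. Of 6 lipoxygenases apart from Alox5, only Alox12 passed the filter (0.07 ± 0.26).

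Of 15 epoxygenases and hydrolases tested, 11 had positive values (median 0.20), as had 6307 of all 12558 tested genes. Of these 15, 10 belong to the Cyp2c family, whose near-identical members make the counts uncertain. Cyp2c38, singled out after its values were seen, was at 334 ± 71.6 CPM in GRMAC and 237 ± 41.1 CPM in GRflox (0.50 ± 0.15, adjusted p = 0.158, edgeR), and Cyp2c37 at 0.33 ± 0.19. Ephx2, the soluble epoxide hydrolase that breaks down epoxides of arachidonic acid, was at 1179, 1193, 1024, 1162 and 1174 CPM in GRMAC libraries 1 to 5, against 1481, 1324, 1316, 1393 and 1366 CPM in GRflox libraries 1 to 5. Every GRMAC library lay below every GRflox library (−0.26 ± 0.07, adjusted p = 0.0914, edgeR).

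The 14 other annexins and annexin receptors tested had 7 positive and 7 negative values. Anxa5, a phosphatidylserine-binding annexin, was at 52.7 ± 3.92 CPM in GRMAC and 59.7 ± 2.01 CPM in GRflox, without overlap (−0.18 ± 0.06, adjusted p = 0.165, edgeR). Anxa2, a membrane-binding annexin singled out after its values were seen, was at 5.83 ± 0.293 CPM in GRMAC and 5.01 ± 0.449 CPM in GRflox, also without overlap (0.22 ± 0.10, adjusted p = 0.291, edgeR). Anxa6 and Anxa7, the most abundant, were at −0.10 ± 0.06 and −0.05 ± 0.07. The formyl peptide receptor gene Fpr1, singled out after its values were seen, was the lowest at −0.48 ± 0.24.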

How the data were processed

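The authors deposited whole-number read counts per gene, unnormalized per the file headers, in 10 columns, each assigned to a library through its title. Another table gives log2 fold changes of knockout against control computed by the authors, per the file headers, with adjusted p-values that the authors deposited beside them. Its 10 columns of values per library were not used. Per the submitters' processing notes, mm10, HISAT2 2.1.0 and DESeq2 1.24.0 were used; the counting program, annotation and strand setting are not given in the sources used here. Starts in the count table count from 0 and are printed with 1 added.

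Low counts were removed with filterByExpr, which left 12558 of 19764 genes. GRMAC was compared with GRflox by edgeR 4.0.16 in R 4.3.3 (TMM scaling, robust quasi-likelihood test, Benjamini-Hochberg over all tested genes, threshold 0.05). Each standard error is the absolute log2 fold change divided by the root of F. Alternatives were DESeq2 1.42.0, limma-voom (limma 3.58.1), other scalings, no filter, no robust estimation, the replicate number as a block and each library left out; a correction for GC content and transcript length (splines with 5 degrees of freedom per library) was added after the data were seen. The test across genes was tested on simulated counts with known changes. Transcript lengths are from GENCODE. Library totals and summed marker CPM (on the log2 scale, over 12 lists) were tested by exact two-sided permutation, whose smallest p is 0.00794. The members and all lists were chosen with earlier results of these data known. Of the further pathway genes, the rule named any called by edgeR and otherwise, in each list, the 2 most abundant and the one with the lowest p; Cyp2c38, Anxa2, Fpr1, Ptgdr and Ptgdr2 fall outside it and were chosen after their values were seen. The 5 genes most like Hpgds are named.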

Additional observations from a re-analysis of the deposited data

Results flagged for a closer look

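A library far from the rest of its genotype was found in 6 of 82 groups of 5 values; chance alone gives about 1 group in 20. None was a member. Cbr1 was at 106.6 CPM in GRMAC 4, against 130.9 to 133.7 CPM in the other GRMAC libraries. Cyp4f14 was also lowest in GRMAC 4, at 145.8 CPM against 162.0 to 168.1 CPM. Ephx2 was at 1024 CPM in GRMAC 3, against 1162 to 1193 CPM in the others. Cysltr2 was at 1.03 CPM in GRMAC 5, against 0.615 to 0.693 CPM. The summed neutrophil markers stood at 6.53 CPM in GRMAC 4, against 3.53 to 3.92 CPM, and the summed sinusoidal endothelial markers at 211.0 CPM in GRMAC 2, against 318 to 346 CPM.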

How the results depend on the processing

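The log2 fold change of Hpgds was 1.18 and ran from 1.10 to 1.22 over 8 other settings and from 1.08 to 1.38 with 1 library left out. Its difference relative to the Kupffer markers was 1.003, 1.09 with Cd163 and Cd207 among them, and 0.90 to 1.12 with 1 library left out. All tested members kept their sign throughout except Ltc4s, which turned negative in 3 of 18 alternatives. Ptgds ran from 0.31 to 0.96 with 1 library left out. The count of all genes called was 22 with edgeR, 425 with DESeq2, 8 with limma-voom, 34 without a filter, 81 with the replicate block, 8 without robust estimation, 9 with the GC and length correction, and 5 to 47 with 1 library left out. The members called were 0 with edgeR and 1 (Hpgds) with DESeq2, with library totals as the only scaling, without a filter and with the replicate block, and 0 to 1 with 1 library left out. Of the 67 other pathway genes 0 were called with edgeR, 3 with DESeq2 (Ephx2, Mgll and Cyp2c38), 1 with the replicate block (Cyp2c38), and 0 with any 1 library left out. The cause of these differences was not tested. As a check of pairing by number, deviations of GRMAC and GRflox libraries with equal numbers were correlated. Of these 5 correlations, 2 were over 0.1 (0.17 and 0.15) and one was −0.11. Libraries with unequal numbers were not correlated, so the check has no reference and cannot decide whether the numbers mark pairs. The labels state no pairs, and the numbers enter only the replicate block above. Depth limits Alox5 and Ptges, with at most 5 and 16 counts in a library.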

Other observations

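Ptgds varied more between libraries than any other tested member, and the genes nearest to its pattern were looked up after its values were seen. They were Sdf2l1 (mean absolute difference 0.49 on the log2 scale), Manf (0.50), Slc22a7 (0.50), Ero1lb (0.52) and Mup9 (0.54). The distance is not scaled to a gene's own spread and grows with it, so it is not compared with the 0.24 to 0.27 of Hpgds. Sdf2l1, Manf and Ero1lb encode proteins of the endoplasmic reticulum that serve protein folding. Manf was at 23.8, 42.8, 41.2, 19.2 and 38.8 CPM in GRMAC libraries 1 to 5, against 39.0, 38.0, 37.2, 16.8 and 77.4 CPM in GRflox libraries 1 to 5. Like Ptgds, Manf was lowest in library 4 of each genotype and highest among GRflox libraries in GRflox 5. Over all 10 libraries, however, Manf was highest in GRflox 5 and Ptgds in GRMAC 3. The log2 fold changes of Manf (−0.33 ± 0.40) and Sdf2l1 (−0.63 ± 0.56) had the opposite sign to that of Ptgds (0.68 ± 0.59), and Ero1lb was at 0.07 ± 0.24.

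The 5 genes nearest to Alox5ap by the same unscaled distance lay at 0.15 to 0.17 (Hist1h4h, Slc41a3, Col7a1, Trpm2 and Sdsl). Trpm2, a cation channel gene of myeloid cells among others, was at 7.71 ± 1.01 CPM in GRMAC and 11.5 ± 2.48 CPM in GRflox, without overlap. Lyz2, which carries the Cre insertion, was at 21.1 ± 5.21 CPM in GRMAC and 32.3 ± 5.51 CPM in GRflox. The groups overlapped through GRMAC 4 alone, at 29.7 CPM against 28.0 CPM in the lowest GRflox library. The log2 fold change of Lyz2 was −0.62 ± 0.16 (adjusted p = 0.114 with edgeR and 0.00904 with DESeq2). That is the same direction as Alox5ap and opposite to Hpgds. For the Lyz2 level, the insertion and loss of the receptor cannot be told apart, and any link of Lyz2 to the Alox5ap level was not tested.

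B cell markers (6 of 7 in the table) summed to 3.95 to 6.77 CPM in GRMAC and 2.97 to 4.87 CPM in GRflox, and the difference of 0.45 on the log2 scale did not pass over the 12 marker lists (exact permutation test, p = 0.0317, adjusted p = 0.381).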
